A study of Mus musculus with 4 samples.

Results

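Ly6a, Ly6d, Ly6e and Ly6c2 were followed in single blood progenitor cells of the mouse. These are 4 of the 32285 genes counted, and they were chosen as listed members of the Ly6 family because their levels per library were known to differ. Their levels and ratios between libraries are therefore a description, not a test. The cells were donor-derived (CD45.2+) bone marrow cells without lineage markers and positive for Sca1 and Kit, the sort known as LSK, in which blood stem cells and the first progenitors are found. They were profiled 10 weeks after transplantation, by droplet RNA sequencing together with 6 surface antibodies, to CD34, CD48, CD117, CD135, CD150 and CD201. Each of 4 genotypes had 1 library: a control, a deletion of Mll3, a deletion of Mll4, and a deletion of the pair (Mll3/4). Mll3 and Mll4 are the histone H3 lysine methyltransferases encoded by Kmt2c and Kmt2d, which act at enhancers. The sources used here do not give the Cre driver, the deletion method, the host or the number of mice per library. A single library per genotype leaves every difference without replicates, so no test was made, and every interval covers counting error only.

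Ly6 proteins are small, disulfide-rich proteins that are mostly held on the cell surface by a glycosylphosphatidylinositol (GPI) anchor. Many of their genes lie side by side on mouse chromosome 15, and several are used as markers of blood cell types. Ly6a encodes Sca1, the antigen of the sort itself, which is also known to respond to interferon. Ly6d marks lymphoid progenitors that are turning toward the B lineage, Ly6e is a broadly expressed interferon-responsive member, and Ly6c2 encodes a form of Ly6C, a marker of monocytes and of granulocyte-monocyte progenitors. Ly6c1, a near copy of Ly6c2, was not among the chosen members and is given beside it.

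The 4 members lie within 349915 bases of chromosome 15 on GRCm38 (GENCODE M21), and all are protein-coding. Ly6d (ENSMUSG00000034634) spans 74762056 to 74763620 on the minus strand, Ly6e (ENSMUSG00000022587) 74955051 to 74959905 on the plus strand, Ly6a (ENSMUSG00000075602) 74994877 to 74998031 on the minus strand, and Ly6c2 (ENSMUSG00000022584) 75108158 to 75111970 on the minus strand. Ly6c1 (ENSMUSG00000079018) lies between the last pair, at 75044018 to 75048830 on the minus strand, 59327 bases from Ly6c2. The transcripts of Ly6c1 and Ly6c2 were 97.6% identical over 822 aligned bases. Over the last 500 bases of each transcript, 35 of 411 windows of 90 bases (8.52%) were found in both, so that a share of their reads could not be assigned to either, and the split between these genes carries that uncertainty. No such window was shared with another gene for Ly6a, Ly6d or Ly6e (0 of 411 each).

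The upstream bases of Ly6c1 and Ly6c2 are shown because these neighbours with near-identical transcripts stood at opposite ends in the Mll3/4 library. The sequences are RefSeq's (GRCm38.p6), the 250 bases before each start, 5′ to 3′ on the minus strand, at chr15:75111972-75112221 for Ly6c2 and chr15:75048838-75049087 for Ly6c1. Capitals mark GAGGAA, the letters searched for PU.1 on both strands.
Ly6c2: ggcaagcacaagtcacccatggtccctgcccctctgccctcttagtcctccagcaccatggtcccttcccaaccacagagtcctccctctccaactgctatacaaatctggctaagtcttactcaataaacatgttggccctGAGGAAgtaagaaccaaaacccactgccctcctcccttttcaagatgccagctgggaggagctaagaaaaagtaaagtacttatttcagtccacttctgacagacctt
Ly6c1: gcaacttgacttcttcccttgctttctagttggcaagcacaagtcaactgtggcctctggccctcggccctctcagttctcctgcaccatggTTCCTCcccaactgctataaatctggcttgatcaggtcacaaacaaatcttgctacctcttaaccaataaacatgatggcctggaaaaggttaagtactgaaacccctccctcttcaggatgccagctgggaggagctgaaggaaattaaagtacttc
The windows were 75.9% identical over 216 aligned bases. GAGGAA began at base -108 from the start on the gene's strand in Ly6c2 and at -158 on the other strand in Ly6c1, and 23.3% of the 32851 promoter windows of the same length held it. None of the other motifs searched on both strands (ISRE, as TTTC, any 2 bases and TTTC; GAS, as TTCNNNGAA; EBF1, as TCCC, any 2 bases and GGGA; E2A, as CAGGTG) was in either window. These were in 2.98%, 7.02%, 0.779% and 17.2% of all windows in that order.

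After filtering, 6851 control, 5803 Mll3, 4609 Mll4 and 4568 Mll3/4 cells held 48049285 to 111781993 unique molecular identifiers (UMIs) per library, with medians of 8821 (Mll3/4) to 20809 (Mll4) per cell. Pairs of libraries shared 9 to 22 cell barcodes. Levels are given as CPM, the UMIs of a gene scaled to 1000000 UMIs per library, gate or cluster. Kmt2c stood at 68.3, 35.1, 61.0 and 42.0 CPM in the control, Mll3, Mll4 and Mll3/4 libraries, and Kmt2d at 24.4, 21.5, 22.3 and 25.3. Kmt2d was thus no lower in the libraries labelled for the Mll4 deletion than in the Mll3 library. Reads from the 3′ end do not check a deletion elsewhere in a gene, and libraries are named here by their labels. Kit was present in all 4, at 214 to 358 CPM. The Mll4 and Mll3/4 libraries stood apart in their cell types. A joint clustering without Ly6 family genes had clusters named from markers as mast cell or basophil, macrophage, plasma or mature B cell, T or innate lymphoid cell, or stroma. They are called the mature classes here, a name by RNA, and whether they met the surface limits of the sort was not tested. These classes held 43.4% of the Mll4 cells, against 1.52%, 2.27% and 0.131% in the control, Mll3 and Mll3/4 libraries. B lineage-like clusters held 99.4% of the Mll3/4 cells, against 0.219%, 2.46% and 0.174% in the control, Mll3 and Mll4 libraries. Fewer cells of a type and less RNA per cell cannot be told apart in a library's sum.

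Levels below are over all cells of a library, with exact 95% Poisson intervals where given. Of the 42 Ly6/uPAR family genes in the files, 18 had at most 3 UMIs over all 4 libraries and 5 had a mean of at least 20 CPM: the 4 members and Ly6c1. The 4 members made up 95.4%, 96.7% and 97.3% of the family's UMIs in the control, Mll3 and Mll4 libraries, and 72.5% in the Mll3/4 library, in which the family's sum was 2804 CPM against 655 in the control.

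Ly6a, the gene of the sort marker, was counted at 93.5 CPM in the control (10151 UMIs), 135 in the Mll3 library (12962), 119 in the Mll4 library (13348) and 257 in the Mll3/4 library (12326). The log2 ratio to the control was 0.53 (0.49 to 0.56), 0.35 (0.32 to 0.39) and 1.46 (1.42 to 1.49). As CPM over all cells it was highest in the Mll3/4 library, whose cells had the lowest median depth, and lowest in the control. UMIs per cell, at each cell's own depth, were also taken apart by 6 mitosis genes (named below). Cells with a mitosis UMI had 1.16, 1.68, 2.12 and 2.31 UMIs of Ly6a in the control, Mll3, Mll4 and Mll3/4 libraries. Cells without one had 1.79, 2.78, 3.74 and 2.98, so that the Mll4 library was highest among these. Without the mature classes the Mll4 library was lowest, at 53.3 CPM against 89.1 in the control. Its rank among all genes went from 1557 in the control to 469 in the Mll3/4 library.

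Ly6d, the lymphoid progenitor marker, was at 13.2, 48.4, 41.0 and 498 CPM in the control, Mll3, Mll4 and Mll3/4 libraries (1433, 4655, 4583 and 23920 UMIs). Its log2 ratios were 1.87, 1.64 and 5.24. Among the members it had the widest range upward from the control.

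Ly6e was the most abundant member in every library, at 496, 572, 1249 and 1275 CPM in the same order (53898 to 139592 UMIs). Its log2 ratios were 0.20, 1.33 and 1.36, so that in CPM the Mll4 and Mll3/4 libraries stood together above the other pair. Per cell these libraries lay apart. Cells with a mitosis UMI had 9.82, 11.9, 42.1 and 16.4 UMIs of Ly6e in the same order, and cells without one had 6.07, 7.23, 20.4 and 11.5.

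Ly6c2, the myeloid member, was at 21.7, 47.0, 331 and 3.66 CPM (2357, 4522, 37040 and 176 UMIs). Its log2 ratios were 1.11, 3.93 and -2.56. It was highest in the Mll4 library, and it was the 1 member with a level below the control, in the Mll3/4 library.

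Ly6c1 was at 0.543, 1.08 and 0.725 CPM in the control, Mll3 and Mll4 libraries (59, 104 and 81 UMIs) and at 691 in the Mll3/4 library (33212 UMIs). Its log2 ratios were 0.99 (0.52 to 1.48), 0.41 (-0.09 to 0.92) and 10.30 (9.95 to 10.71). It thus lay on the same side of the control as Ly6c2 in the Mll3 library and on the opposite side in the Mll3/4 library. In the Mll4 library its interval included 0, and the mature classes held 76.5% of its UMIs there. Without them it was at 0.207 CPM, against 0.429 in the control. The other family genes that reached 20 CPM in any library were Ly6k, at 2.93, 1.34, 15.4 and 32.7 CPM, and Lynx1, a regulator of nicotinic acetylcholine receptors, at 0.525, 1.44, 0.993 and 39.1 CPM. Both were highest in the Mll3/4 library.

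**Figure D1:**
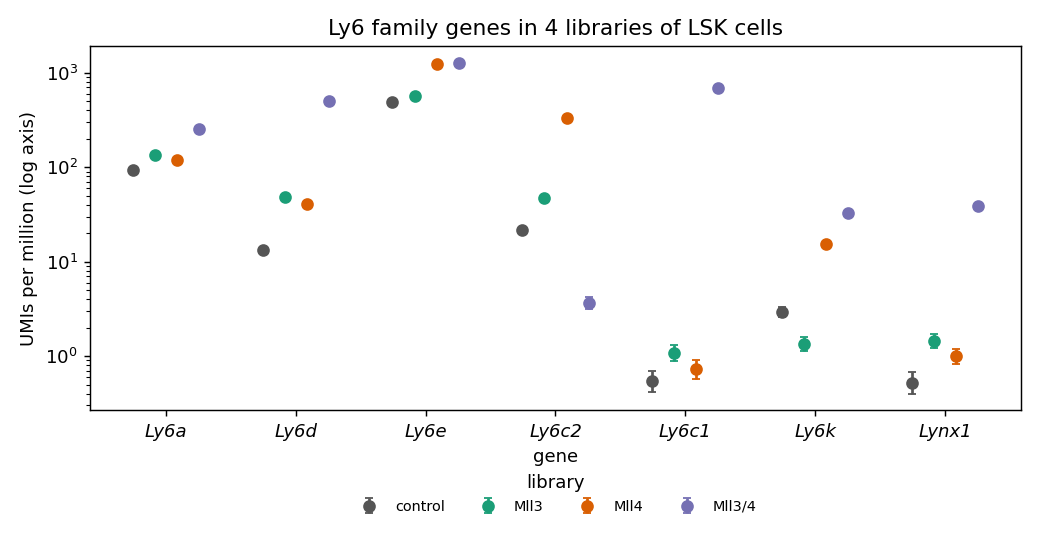
CPM (log axis) of the 4 members and of Ly6c1, Ly6k and Lynx1 in each library; points are library values and bars are exact 95% Poisson intervals, often smaller than the point. Ly6c1 and Ly6c2 trade places between the Mll4 and Mll3/4 libraries: 0.725 and 331 in the former, 691 and 3.66 in the latter.

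At least a 2-fold difference from the control, the line used for all counts, was passed upward by 2 of the 4 members in the Mll3 library (1.11% of the 6122 genes whose mean reached 20 CPM), by 3 in the Mll4 library (5.05%) and by 3 in the Mll3/4 library (6.03%). It was passed downward by none in the Mll3 library (0.441%) or the Mll4 library (3.25%) and by 1 in the Mll3/4 library (10.5%). The members were chosen on these values and nothing is read from the counts. The Mll3 ratio of Ly6c2 was under the line with a looser (0.90) or stricter (0.88) filter on cells, without doublet removal (0.96) and with equal weight per cell (0.96). The Mll4 ratio of Ly6d was -0.15 without the mature classes. The 3 comparisons share the control library.

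The members differed in whether many cells held a little or few cells held much. Cells were thinned to 3000 UMIs each, which left out 13, 16, 128 and 33 cells of the control, Mll3, Mll4 and Mll3/4 libraries, and the share of cells with at least 1 UMI was taken with an exact 95% binomial interval. Ly6e was seen in 75.3%, 77.2%, 86.2% and 96.4% of cells (98.6%, 99.3%, 96.7% and 99.9% without thinning). Ly6a was seen in 25.2% (24.1 to 26.2), 30.4% (29.2 to 31.6), 30.9% (29.6 to 32.3) and 45.8% (44.3 to 47.2), or 62.3%, 68.2%, 58.4% and 68.9% without thinning, so that the order of the Mll4 library and the control depended on depth.

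Ly6d was seen in 0.936%, 3.54%, 3.01% and 47.9% of thinned cells (1.28%, 5.57%, 4.95% and 63.9% unthinned). Shares were also taken in clusters that should lack it. Whether these are background from free RNA or low levels in the cells was not tested. In the control it was seen in 0 of 861 megakaryocyte-like cells, which allows up to 0.348% by a limit of 3 counts and 0.428% by the exact interval (median depth 17464 UMIs), in the Mll3 library in 0.149% of such cells (15999), and in the Mll4 library in 0.110% of granulocyte-monocyte-like (44792), 0.777% of mast or basophil-like (4907) and 0.879% of macrophage-like cells (9266). The Mll3/4 library had no cluster of another type with at least 50 cells, so no such share could be taken there.

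Ly6c2 was seen in 1.27%, 2.06%, 20.5% and 0.265% of thinned cells (2.67%, 3.52%, 39.6% and 0.701% unthinned). In the Mll4 library the granulocyte-monocyte-like cluster 6 had it in 60.2% of cells (median depth 44792), while mast or basophil-like cells had it in 8.35% (4907) and the unnamed cluster 16 in 3.13% (23304). Without thinning, the mast or basophil-like cells and cluster 16 had it in 13.3% and 21.7%. Whether these shares are background from free RNA or low levels in the cells was not tested. In the control it was seen in 0 of 1089 HSC-like cells, which allows up to 0.275% by 3 counts and 0.338% by the exact interval (median depth 10077).

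**Figure D2:**
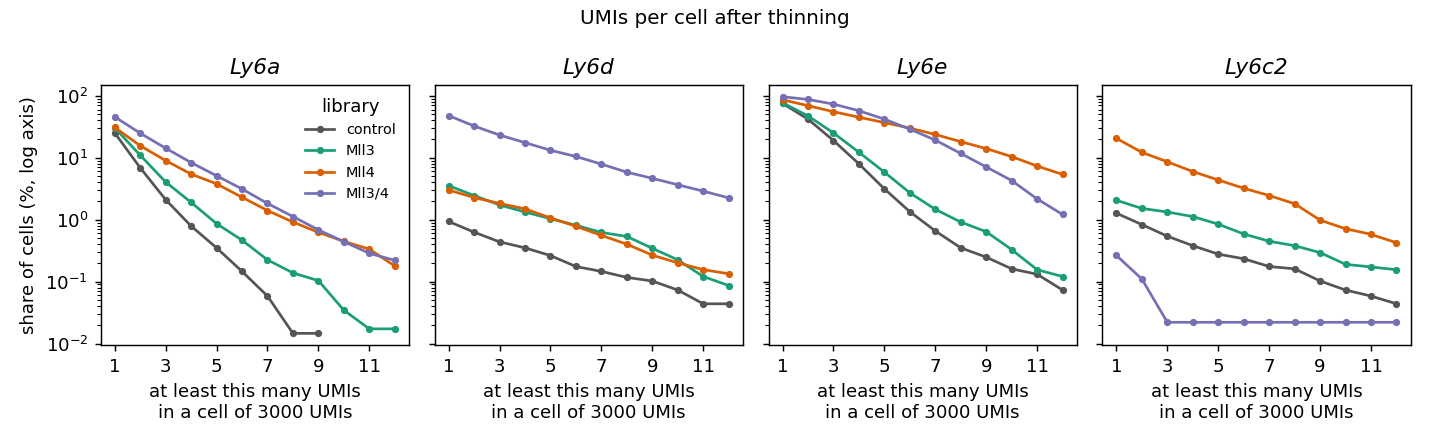
Share of cells (log axis) with at least the given number of UMIs of each member after thinning every cell to 3000 UMIs, 1 line per library. At 10 or more UMIs, Ly6d reached 3.66% of Mll3/4 cells and 0.0731% of control cells, and Ly6e 10.4% of Mll4 cells.

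The ratio of variance to mean, which is 1 for pure counting noise, was 5.52 to 7.47 for Ly6d and 5.0 to 8.26 for Ly6c2, against medians of 1.01 to 1.39 and 1.01 to 1.18 in 100 genes of like mean. For Ly6a it was 1.56, 1.91, 3.33 and 2.83 in the control, Mll3, Mll4 and Mll3/4 libraries. Ly6e was at 1.60 in the Mll3/4 library, equal to the median of its like genes. Within the Mll3/4 library, Ly6e was thus spread over the cells and Ly6d was concentrated in part of them.

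Cells with UMIs of none of the 4 members made up 18.8%, 16.3%, 8.17% and 1.90% of thinned cells in the control, Mll3, Mll4 and Mll3/4 libraries. Cells with 3 members made up 0.439%, 1.09%, 3.57% and 24.5%. In the Mll3/4 library Ly6a and Ly6d were found together in 25% of cells, where the product of their shares was 21.9%. Ly6a was in 56.3% of the Ly6c1-positive and 30.6% of the Ly6c1-negative cells of that library. In the Mll4 library Ly6a and Ly6c2 met in 3.79% of cells, where the product was 6.35%, and Ly6a and Ly6d in 2.08%, where it was 0.931%.

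Levels were next taken within surface gates set from the antibodies. Cells low in CD135 were split by the other pair: HSC had CD150 and no CD48, MPP1 neither, MPP2 both, and MPP3 CD48 without CD150. Cells high in CD135 were MPP4 where CD150 was low, and are otherwise called CD150+CD135+. Multipotent progenitors (MPP) are the classes downstream of the stem cell. A gate was used in a library with at least 100 cells in it, which left out MPP2 of the Mll3/4 library (99 cells) and CD150+CD135+ of the Mll4 library (24 cells). The gates did not hold 1 cell type across libraries, since nearly all Mll3/4 cells were B lineage-like in every gate they entered.

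Ly6a in the control was highest in the MPP1 and HSC gates (151 and 132 CPM), followed by MPP4 (99.6), MPP3 (70.8), CD150+CD135+ (64.6) and MPP2 (41.9). The counting intervals of MPP3 (68.5 to 73.0) and CD150+CD135+ (52.9 to 78.1) overlapped. Over all cells, the median log2 ratio of the 6122 genes in the Mll3 library was 0.10. In that library Ly6a was higher than in the control in each of the 6 gates. Its log2 ratios went from 0.10, the same as this median (MPP1, 0.01 to 0.19), to 0.60 (MPP4, 0.50 to 0.71). In the Mll4 library it was lower in the HSC and MPP1 gates (-0.39 and -0.30) and higher in MPP2, MPP3 and MPP4 (0.72, 0.60 and 1.28). In the Mll3/4 library it was at 217 to 304 CPM in the 5 gates used, with ratios of 1.21 (HSC), 0.76 (MPP1), 1.95 (MPP3), 1.13 (MPP4) and 2.22 (CD150+CD135+).

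Ly6d differed between the gates in 3 of the 4 libraries. In the control it went from 0.140 CPM in the HSC gate (3 UMIs) and 0 UMIs in the CD150+CD135+ gate to 12.6 in MPP3 and 50.2 in MPP4. The Mll3 library had 0.488, 100 and 206 CPM in the HSC, MPP3 and MPP4 gates, and the Mll4 library 1.20, 34.9 and 162. Mature classes held 62.7%, 44.3% and 91.0% of the Ly6d UMIs of the control, Mll3 and Mll4 libraries. Their part in these gate values was not tested. In the Mll3/4 library Ly6d was between 444 and 520 CPM in each of the 5 gates used, the HSC gate included (452).

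Ly6e was at 380 to 541 CPM over the control gates and at 1213 to 1362 over the Mll3/4 gates, which did not overlap. The Mll4 library was split: 534, 470 and 617 CPM in the HSC, MPP1 and MPP2 gates, close to the control's 447, 494 and 471, but 1433 and 1237 in MPP3 and MPP4, against 511 and 541. Ly6c2 in the Mll4 library was at 418 and 269 CPM in MPP3 and MPP4, against 32.6 and 23.9 in the control. In the HSC and MPP1 gates it was at 12.9 and 12.6, against 0.561 and 2.15 (12 and 25 UMIs). The log2 ratios there were 4.48 (3.67 to 5.52) and 2.53 (1.90 to 3.26). Those 12.9 and 12.6 CPM lay between the 25.8 of the library's mast or basophil-like cells and the 10.6 and 7.86 of its unnamed clusters 16 and 17. In the Mll3/4 library Ly6c2 was at 6.27 CPM or less in every gate used.

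**Figure D3:**
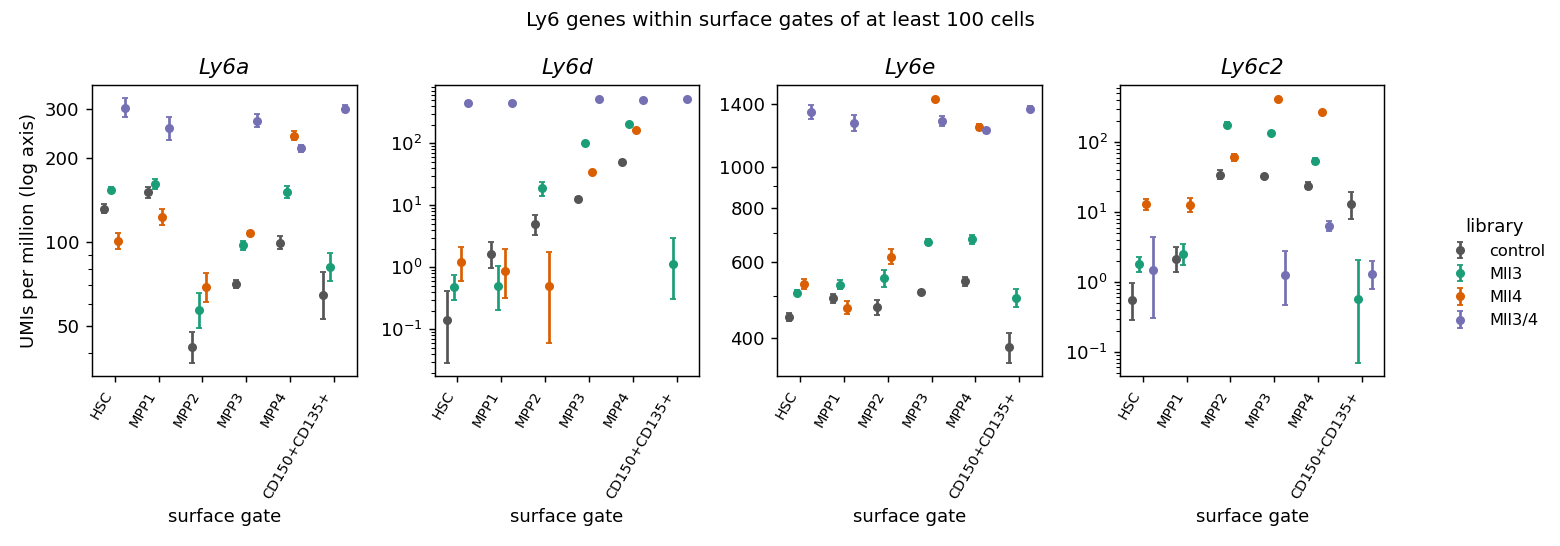
CPM (log axis) of each member within surface gates of at least 100 cells, by library, with exact 95% Poisson intervals; sums of 0 UMIs are not drawn. Ly6d is flat across gates in the Mll3/4 library (444 to 520) and spans from 0.140 (HSC) to 50.2 (MPP4) in the control.

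Clusters gave a finer map; those at or above 50 cells in a library are described. A cluster that came mostly from 1 library may be that library and not a type. In the control Ly6a was highest in the HSC-like cluster 2 (230 CPM, 1090 cells) and lowest in the granulocyte-monocyte-like cluster 6 (4.99 CPM, 13 UMIs), and the dividing, unnamed cluster 4 had 38.8. Of the 7 clusters with at least 50 cells in both libraries, Ly6a was higher in the Mll3 library in 7, beyond the counting interval, by 0.25 to 1.89 on the log2 scale. In the HSC-like cluster the levels were 230 and 290 CPM, a log2 ratio of 0.33 (0.26 to 0.40). Ly6e differed less within these 7 clusters, with ratios of at most 0.20.

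Most of the Ly6a and Ly6d of the Mll4 library lay in the mature classes. Its mast or basophil-like cluster (585 cells) had 590 CPM of Ly6a, its T or innate lymphoid-like cluster 8 (337 cells) 712, and its plasma or mature B-like cluster 14 (124 cells) 785, while its unnamed clusters 16 and 17 had 121 and 57.3. The mature classes held 63.3% of the Ly6a, 91.0% of the Ly6d, 25.9% of the Ly6e and 9.83% of the Ly6c2 UMIs of this library. The plasma or mature B-like cells had 1264 CPM of Ly6d and 708 of Ly6c2. Without the mature classes in any library, the Mll4 ratio of Ly6a was -0.74 and that of Ly6d -0.15, both opposite in sign to the values over all cells, while Ly6e was at 1.21 and Ly6c2 at 4.32. Mature classes also held 62.7% of the control's and 44.3% of the Mll3 library's Ly6d UMIs, and leaving them out moved the Mll3 ratio of Ly6d from 1.87 to 2.46 and the Mll3/4 ratio from 5.24 to 6.64.

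Ly6c2 lay mainly in granulocyte-monocyte-like cells in 3 libraries. They held 79.4% of its UMIs in the control (115 cells), 76.2% in the Mll3 library and 88.5% in the Mll4 library. Plasma or mature B-like cells had it at a like level, 1121 CPM against 1089 in the Mll3 library and 708 against 727 in the Mll4 library. Within cluster 6 it stood at 574 CPM in the control (95 cells), 1068 in the Mll3 library (107 cells) and 729 in the Mll4 library (926 cells), log2 ratios of 0.90 (0.81 to 0.99) and 0.34 (0.27 to 0.42). The Mll4 ratio within cluster 6 was far under the 3.93 over all cells. Cluster 6 held 20.1% of the Mll4 cells against 1.39% of the control's. The unnamed cluster 3 was the other of the 2 clusters with at least 50 cells in both libraries. Its Mll4 ratio of Ly6c2 was 4.38 (2.64 to 7.80), on 22 UMIs against 2 in the control. The part of cell shares in the ratio over all cells was not tested. Ly6e in cluster 6 was at 712, 710 and 1761 CPM, a ratio of 1.31 (1.24 to 1.37) in the Mll4 library. In the Mll3/4 library, 6 cells of mature classes held 125 of the 176 Ly6c2 UMIs (71.0%), and without these classes the ratio was -4.08.

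B lineage-like cells allowed the Mll3 and Mll3/4 libraries to be set side by side. The Mll3 library had 143 such cells (cluster 12), and the Mll3/4 library had 708 in cluster 18 and 3831 in cluster 19. Clusters 12 and 18 were rich in transcripts of 6 mitosis genes (Mki67, Top2a, Birc5, Cenpf, Ccnb1 and Cdk1; 4010 and 5299 CPM in sum), and cluster 19 was not (238 CPM). Ly6a was at 81.4 CPM in cluster 12 and 72.6 in cluster 18, a log2 ratio of -0.17 (-0.36 to 0.03). Ly6d was at 284 and 279 CPM, a ratio of -0.03 (-0.13 to 0.08), and Ly6e at 1149 and 1216, a ratio of 0.08 (0.03 to 0.13). In CPM these members were thus alike within 0.36 on the log2 scale in these dividing B lineage-like cells, as far as counting error goes. Ly6c1 was not: 1.70 CPM (6 UMIs) in cluster 12 and 293 in cluster 18, a ratio of 7.31 (6.30 to 8.87). Median depth was 23732 UMIs per cell in cluster 12 and 16577 in cluster 18. Per cell, Ly6a, Ly6d and Ly6e were each lower in cluster 18. Ly6a was at 2.01 and 1.30 UMIs per cell in clusters 12 and 18, and Ly6e at 28.3 and 21.7. The clusters also differed in B lineage genes, with Cd79a, a chain of the B-cell receptor, at 1791 and 2800 CPM and Rag1, of the recombinase, at 81.1 and 189.

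Between the B lineage-like clusters of the Mll3/4 library, the one low in mitosis transcripts had a higher CPM of each member but Ly6c2. Ly6a was at 72.6 CPM in cluster 18 and 327 in cluster 19, Ly6d at 279 and 586, Ly6e at 1216 and 1310, and Ly6c1 at 293 and 852. Ly6c2 was at 1.34 and 0.867 (17 and 30 UMIs). Median depth moved with this split, at 16577 and 7937 UMIs per cell. Per cell the order of Ly6e was the reverse, at 21.7 UMIs in cluster 18 and 11.8 in cluster 19. Ly6d was at 4.98 and 5.30 UMIs per cell, Ly6a at 1.30 and 2.96, and Ly6c1 at 5.23 and 7.70.

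**Figure D4:**
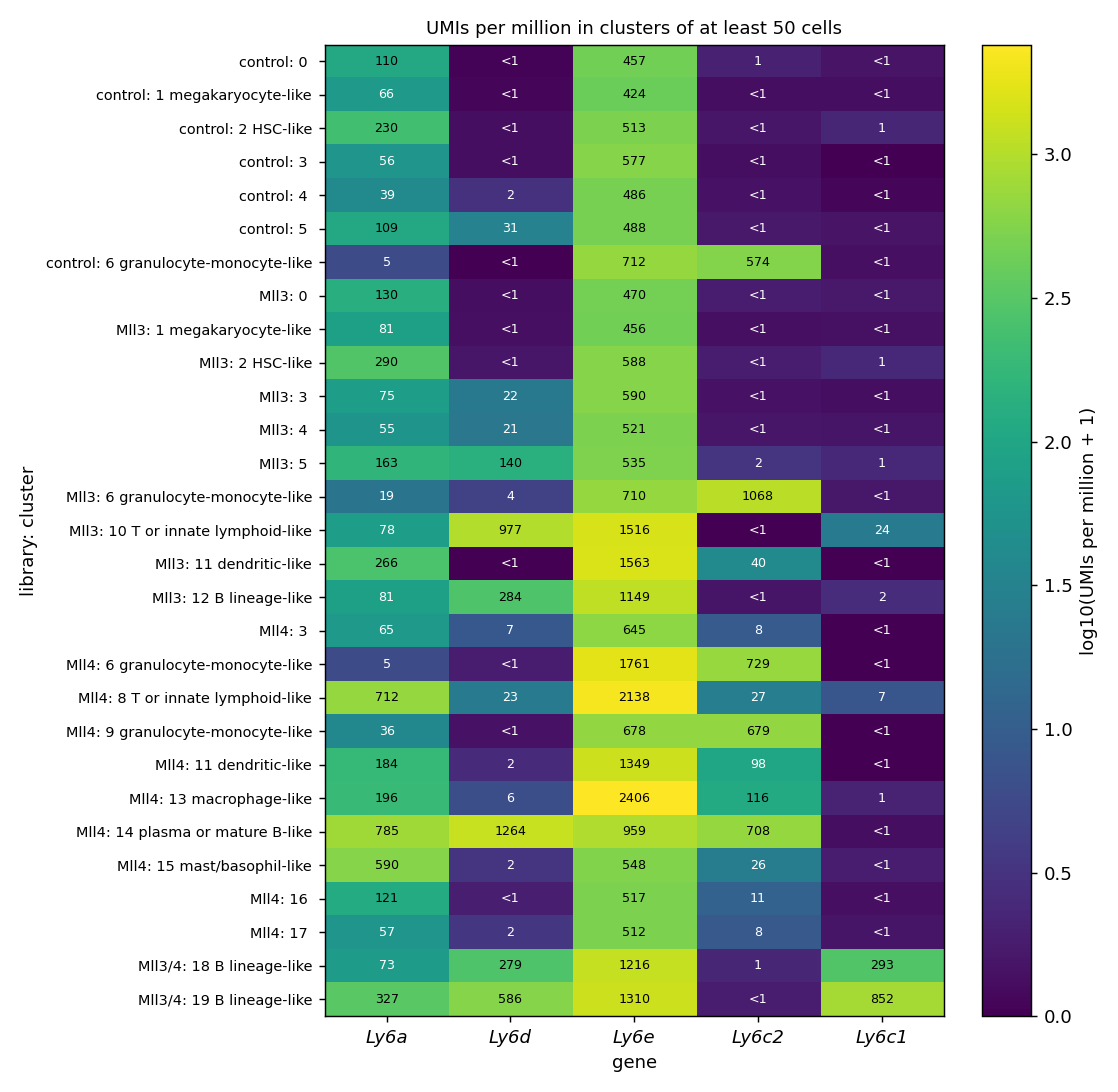
CPM of the members and Ly6c1 in each cluster with at least 50 cells in a library; color is log10(CPM + 1) and cells show the value. Ly6c2 is highest in the granulocyte-monocyte-like and the plasma or mature B-like rows, and Ly6c1 in those of the Mll3/4 library (293 and 852).

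Ly6a was lower in dividing cells in each of the 4 libraries. Cells with a UMI of the 6 mitosis genes after thinning had 58.6, 82.4, 61.3 and 172 CPM of Ly6a in the control, Mll3, Mll4 and Mll3/4 libraries, and cells without one had 146, 214, 241 and 346. The ratio of the Mll3/4 library to the control was 1.55 among the former and 1.24 among the latter. Ly6e in the control was at 496 CPM in both. Per cell, the difference for Ly6a was smaller: 1.16 UMIs in control cells with a mitosis UMI and 1.79 in those without, at median depths of 19646 and 11407.

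Within libraries the members were set against the surface antibodies, by quartile of the antibody signal. In the control and Mll3 libraries Ly6a followed CD201, the endothelial protein C receptor that marks stem cells. From the lowest to the highest quartile it went from 46.1 to 204 CPM in the control and from 68.7 to 288 in the Mll3 library. In the Mll3/4 library it went from 223 to 281. In the Mll4 library the highest quartile had 246 CPM, a log2 ratio of 1.45 to the lowest, but the rise was not steady. The level there was lowest in the quartile next above the lowest, at 61.7 CPM. Ly6a in the Mll4 library varied more with CD135 (log2 ratio 1.86) and CD34 (-1.66). Ly6d lay in the lowest quartile of CD117, the Kit protein: 50.1 against 0.111 CPM in the highest quartile of the control (1330 and 3 UMIs), and 192 against 0.313 in the Mll3 library. In the Mll3/4 library the same quartiles had 508 and 490. Ly6d was also higher with CD135: 1.78 CPM in the lowest and 37.7 in the highest quartile of the control, against 462 and 565 for the Mll3/4 library. Ly6c2 and Ly6d both went up with CD48 in the control, from 0.669 to 41.8 CPM (log2 ratio 5.97) and from 0.239 to 26.2 CPM (6.78), and the Mll3 library had ratios of 7.68 and 7.87. In the Mll4 library Ly6c2 went from 82.4 to 452 CPM with CD48 and Ly6d from 36.6 to 31.9. Mature classes held 62.7%, 44.3% and 91.0% of the Ly6d UMIs of the control, Mll3 and Mll4 libraries. Their part in the quartile values was not tested. Ly6e showed the flattest profile in the control, with log2 ratios of the highest to the lowest quartile between -0.24 and 0.23 over the 6 antibodies.

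The genes most like each member were ranked by Pearson's r of log2(CPM + 1) over the 22 gate-by-library groups of at least 100 cells, among 4405 genes. The groups share 4 libraries, so r is a description. For Ly6d these were Mzb1 (0.980), an endoplasmic reticulum chaperone of B cells, Pou2af1 (0.959), a B-cell coactivator, and Dntt (0.953), the terminal transferase of lymphoid progenitors. With each library's mean taken out they were Mzb1 (0.971), Pou2af1 (0.969) and Slamf6 (0.961). For Ly6a they were Cd2ap (0.900), Ddit4 (0.896) and Trp53inp1 (0.894), and with library means taken out Shisa5 (0.943), Ube2h (0.924) and Ltb (0.921), so that no gene was in both. For Ly6e they were Trps1 (0.952), Man2a1 (0.950) and Marcks (0.939), or Ankrd44 (0.953), Serp1 (0.951) and Ctsa (0.950). For Ly6c2 they were Igsf6 (0.945), Atp8b4 (0.925) and Hp (0.924), or Igsf6 (0.914), Dynll1 (0.897) and Anxa3 (0.896). Between members, Ly6d and Ly6e had r of 0.85 (0.76 with library means out), and Ly6d and Ly6c2 0.05 (0.78 with library means out).

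Of 26 protein-coding genes from 250000 bases before Ly6d to 250000 after Ly6c2, 11 reached 1 CPM in at least 1 library. Of these 11, 10 were above the control in the Mll3/4 library and Ly6c2 was below it, and in the Mll3 library 10 were above it and Ly6k was below (-1.12). In the Mll4 library Arc, Jrk and Them6, the 3 outside the family, were below the control (-0.80, -0.36 and -0.41) and the other 8 were above it. These counts include ratios within counting error. Examples are Arc in the Mll3 library (19 UMIs, as in the control), Ly6i in the Mll3/4 library (0.14, -1.14 to 1.26) and Ly6c1 in the Mll4 library. The median ratios of the 6122 genes were 0.10, -0.13 and -0.11 in the Mll3, Mll4 and Mll3/4 libraries. Nothing is read from the counts. Ly6i, between Ly6e and Ly6a, was at 0.193, 0.634, 11.6 and 0.208 CPM in the control, Mll3, Mll4 and Mll3/4 libraries, a pattern high in the Mll4 library as for Ly6c2, while Ly6a and Ly6c1, which lie between Ly6i and Ly6c2, were highest in the Mll3/4 library. Of the genes outside the family, Arc, a neuronal immediate early gene, was at 0.175, 0.197, 0.0984 and 4.62 CPM (19, 19, 11 and 222 UMIs), a log2 ratio of 4.69 in the Mll3/4 library. Jrk was at 2.98, 3.35, 2.33 and 3.43 CPM and Them6 at 22.0, 32.1, 16.5 and 35.0. These genes were named for their position after their values were seen.

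**Figure D5:**
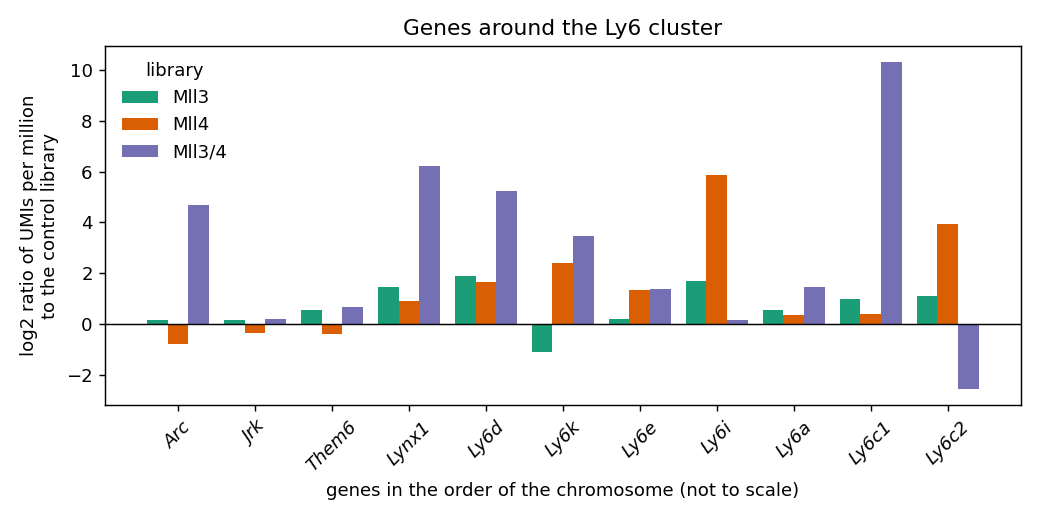
Log2 ratio of CPM to the control for the 11 genes around the Ly6 cluster that reached 1 CPM, in chromosomal order, 1 bar per mutant library; distances are not to scale. Ly6c1 (10.30) and Ly6c2 (-2.56) are adjacent and opposite in the Mll3/4 library.

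Gene lists gave the setting, by counts of genes at least 2-fold from the control and the median log2 ratio. For all 6122 genes that median was 0.10, -0.13 and -0.11 in the Mll3, Mll4 and Mll3/4 libraries. Of these genes, 1.11%, 5.05% and 6.03% were at least 2-fold higher and 0.441%, 3.25% and 10.5% lower, in the same order. These shares stand beside the counts of every list below. Of 12 stem cell genes above the minimum, none was past 2-fold in the Mll3 library (median 0.07), 6 were lower in the Mll4 library (-0.99), and 9 were lower and 1 higher in the Mll3/4 library (-6.00). Between the control and the Mll3/4 library, in which Ly6a was higher, Hlf, a stem cell transcription factor, went from 288 to 2.19 CPM, and Cd34, a surface sialomucin, from 330 to 5.20. Eya1 was the 1 gene past 2-fold upward, at 39.0 and 136 CPM.

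Of 18 lymphoid and B lineage genes, 12 were higher in the Mll3 library (median 2.78), 3 were higher and 3 lower in the Mll4 library (-0.09), and 15 were higher and 2 lower in the Mll3/4 library (7.96). Without the mature classes the Mll4 counts were 0 higher and 2 lower (-0.27). Cd79a was at 7.65, 73.6, 12.4 and 3334 CPM and Ebf1, a B lineage transcription factor, at 4.83, 35.5, 8.33 and 1902. Of 13 granulocyte-monocyte genes, none was past 2-fold in the Mll3 library (0.26), 12 were higher in the Mll4 library (3.85) and 13 lower in the Mll3/4 library (-3.67). Mpo, myeloperoxidase, was at 176, 209, 3742 and 12 CPM, and Ly6c2 followed this order.

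Interferon-responsive genes lay on both sides of the control. Of 9 type I interferon response genes, none was past 2-fold in the Mll3 library (median 0.13), 1 was higher in the Mll4 library (-0.60), and 1 was higher and 2 lower in the Mll3/4 library (0.39). Without the mature classes these counts were 0 higher and 2 lower in the Mll4 library and 1 lower in the Mll3/4 library. Ifi27l2a was at 30.2 CPM in the control and 195 in the Mll3/4 library, Bst2 at 176 and 72.8, and Oasl2 at 26.4 and 4.66. Of 11 interferon gamma response genes, 2 were higher in the Mll3 library (0.45), 2 were higher in the Mll4 library (-0.10) and 5 were lower in the Mll3/4 library (-0.18). The genes higher in the Mll3 library were the GTPases Iigp1 (38.9 and 124 CPM) and Igtp (23.1 and 56.4). In the Mll4 library they were the antigen presentation genes Cd74 (165 and 1237) and H2-Aa (81.6 and 696).

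Genes for synthesis of the GPI anchor that most Ly6 proteins carry gave the last list. Of 9 above the minimum, none was past 2-fold in the Mll3 library (median 0.16), 1 was higher (Dpm3, 121 and 249 CPM) and 1 lower (Pigp, 82.6 and 37.4) in the Mll4 library (-0.04), and 1 was lower (Pigx, 73.6 and 30.5) in the Mll3/4 library (-0.38).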

How the data were processed

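The deposited files were raw UMI counts and antibody counts per cell barcode, which the authors made with Cell Ranger 6.1.1 against mm10, per the submitters' processing notes; libraries were 10x Genomics 3′ v3.1, per the labels' protocols. The filter that chose the barcodes is not given in the sources used here. Groups came from sample titles.

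Barcodes were kept at 1000 genes or more and a mitochondrial share of up to 10% (7274, 6101, 4793 and 4748 of 7682, 6560, 7702 and 5136 in the control, Mll3, Mll4 and Mll3/4 libraries). Scrublet's own threshold called 3, 3, 171 and 1 doublets, too few to have worked in 3 libraries, so the highest scores were removed at 0.8% per 1000 cells (423, 298, 184 and 180 cells). Counts were summed per library, gate or cluster and scaled to CPM, and log2 ratios used 0.5 added UMIs. Sums had exact Poisson and shares exact Clopper-Pearson intervals at 95%, for counting error only. Gates used centred log ratios of antibody counts with 1 Gaussian mixture threshold per antibody. Clustering (scanpy 1.11.5) used 2000 variable genes without the Ly6/uPAR family, 30 components, 15 neighbours and Leiden resolution 0.6, and a cluster was named from at least 3 markers raised 2-fold at 20 CPM or more. Of 32285 gene identifiers, 32158 (99.6%) were in GENCODE M21. Seeded simulated sums with 200 of 6122 genes altered by 1.5 log2 units or more were checked: all 200 passed 2-fold in each comparison and 0 others did.

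Protein identity had been planned and was replaced by transcript identity. The members, gene lists, markers and rules were chosen with earlier results of these data known. Genes named were the members, family genes at 20 CPM in any library, the 3 most like each member, and examples from lists. Alternatives were TMM (edgeR 4.0.16) and median-of-ratios (DESeq2 1.42.0) scaling, other totals, filters, minimums, thinning depths, gate and cluster settings; cells without mitosis UMIs were added after seeing the data.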

Additional observations from a re-analysis of the deposited data

Results flagged for a closer look

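Some ratios to the control had opposite signs in different surface gates of 1 mutant library. These differences between gates were not tested, and cells of 1 library are not replicates. For Ly6a in the Mll4 library the log2 ratio was 1.28 in the MPP4 gate (1.18 at the lower bound) and -0.39 in the HSC gate. Mast or basophil-like, T or innate lymphoid-like, and plasma or mature B-like cells of this library had 590, 712 and 785 CPM of Ly6a, and their part in the gate values was not tested.

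For Ly6e in the Mll4 library it was 1.49 in the MPP3 gate (1433 CPM) and -0.07 in the MPP1 gate (470 CPM), which turned to 0.09 with uncentred antibody counts. For Ly6d in the Mll3 library it was 2.99 in the MPP3 gate (2465 UMIs) and -1.63 in the MPP1 gate (7 UMIs, interval -3.18 to -0.38), which turned to 0.13 with uncentred antibody counts. For Ly6d in the Mll4 library it was 2.94 in the HSC gate (11 UMIs against 3, interval 1.17 to 5.58) and -3.01 in the MPP2 gate (2 UMIs against 28, interval -6.42 to -1.31). With the stricter cell filter the HSC value turned to -1.48 and the MPP2 value was -1.18. For Ly6c2 in the Mll3 library it was 2.36 in the MPP2 gate (565 UMIs) and -4.18 in the CD150+CD135+ gate (2 UMIs against 21, interval -7.61 to -2.44). The former was 0.96 with the stricter filter, and the latter -0.13 with uncentred antibody counts.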

How the results depend on the processing

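No paired analysis was possible because each genotype had 1 library. Log2 ratios are given for Mll3, Mll4 and Mll3/4 over the control, and only those that moved beyond their counting interval, 80 of 132. TMM scaling gave Ly6a 0.44, 0.40 and 1.54, Ly6d 1.78 (Mll3) and 5.32 (Mll3/4), Ly6e 0.11, 1.38 and 1.44, and Ly6c2 1.02 (Mll3). Median-of-ratios scaling gave Ly6a 0.43, 0.40 and 1.56, Ly6d 1.78 and 5.35, Ly6e 0.11, 1.38 and 1.47, and Ly6c2 1.02; it shifted all ratios by -0.10, 0.05 and 0.11. Totals without mitochondrial and ribosomal protein genes gave Ly6a 0.44, 0.30 and 1.39, Ly6e 0.12, 1.28 and 1.30, and Ly6c2 1.03 (Mll3). The looser cell filter gave Ly6a 0.41 (Mll4), Ly6d 1.78 (Mll3) and 5.13 (Mll3/4), and Ly6c2 0.90 and 3.75. The stricter filter gave Ly6a 0.49 (Mll4), Ly6d 1.68, 1.30 and 4.60, Ly6e 1.25 (Mll4) and 1.31 (Mll3/4), and Ly6c2 0.88, 3.12 and -2.86. Without doublet removal Ly6c2 was at 0.96 (Mll3). This ratio was under the 2-fold line here, with both other cell filters and with equal weight per cell. Without the mature classes Ly6a was at -0.74 (Mll4, reversed) and 1.53 (Mll3/4), Ly6d at 2.46, -0.15 (reversed) and 6.64, Ly6e at 1.21 and 1.39 (Mll4 and Mll3/4), and Ly6c2 at 1.04, 4.32 and -4.08. Equal weight per cell gave Ly6a 0.48, 1.01 and 1.59, Ly6d 1.99, 2.03 and 5.82, Ly6e 1.42 and 1.5 (Mll4 and Mll3/4), and Ly6c2 0.96, 3.70 and -2.81. Gates weighted to control shares gave Ly6a 0.34 and 0.31 (Mll3 and Mll4), Ly6d 2.53 (Mll3), Ly6e 0.30, 1.04 and 1.38, and Ly6c2 1.93, 3.54 and -3.50. Cells without mitosis UMIs, added after seeing the data, gave Ly6a 0.72 and 1.24 (Mll4 and Mll3/4), Ly6d 1.52, 2.57 and 5.16, Ly6e 0.17, 1.40 and 1.43, and Ly6c2 3.66 and -1.66. The causes of these moves were not tested.

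Other reversed values were differences of shares (Mll4 minus control, percentage points: Ly6a -1.68 at 6000 UMIs and -3.91 unthinned, Ly6e -1.97 unthinned), and list medians (family -0.15 in the Mll4 library without mature classes; at a minimum of 100 CPM, GPI anchor -0.24 for Mll3 and 0.01 for Mll3/4, type I interferon -0.06 and -0.34). In gates, the stricter filter reversed Ly6d in HSC (-2.82 for Mll3, -1.48 for Mll4) and MPP2 (-0.20 for Mll3), and Ly6c2 in HSC (-1.38 for Mll3) and MPP2 (-0.19 for Mll4). Thresholds per library reversed Ly6d in MPP2 (-0.20 for Mll3), and uncentred antibody counts reversed Ly6a (0.09) and Ly6e (0.09) for Mll4 and Ly6d (0.13) for Mll3 in MPP1. Gate sums of Ly6d and Ly6c2 in the HSC and MPP1 gates rest on few UMIs, and depth limits them.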
